A study of Homo sapiens with 10 samples.

Results

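SMAD1, its partner and inhibitory SMADs, a pair of bone morphogenetic protein (BMP) receptors and the ID genes were followed in 2 mantle cell lymphoma lines, HBL2 and JEKO, each as bortezomib-resistant (BR) cells and as PT cells. The 10 genes were SMAD1, SMAD5, SMAD4, SMAD6, SMAD7, BMPR1A, BMPR2, ID1, ID2 and ID3, out of 19775 genes with a probe set annotated to them alone. A probe set is a group of array probes read as 1 value, and a gene was read through each probe set annotated only to it, with the one of highest mean over the 10 arrays as its main value. Of the 10 genes, 9 were read, through 28 probe sets, and BMPR1A was not analysed here. The genes were chosen by measured values: SMAD1 was selected on its change between BR and PT cells in both lines, and the rest as members of its pathway. Among 14529 genes SMAD1 had the largest difference between the HBL2 and the JEKO change, so its values are given as a description with no test. Counts of genes that passed the test are therefore over the 8 other genes.

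Mantle cell lymphoma arises from mature B cells, and the drug bortezomib blocks the proteasome, the complex that degrades ubiquitin-tagged proteins. Total RNA of cells in logarithmic growth was biotin-labelled and hybridised to 3 HBL2 BR, 3 HBL2 PT, 2 JEKO BR and 2 JEKO PT Affymetrix arrays. Resistance in the BR cells was induced by bortezomib per the labels, and PT, 2 letters that the labels do not spell out, is read here as parental on the basis of what is known of the study. The sources used here do not give whether a BR line is 1 clone, whether drug was present at harvest, or whether replicates were separate cultures. A p-value here thus covers only the spread among these samples, and that spread may be technical.

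All arrays hold an identical set of deposited scores, from 0 to 4.99 with a median of 0.73, so a score reflects where a probe set ranks within an array. Changes are differences in these units, not fold changes, and fewer cells of a type cannot be told apart from less RNA per cell. Arrays correlated at 0.931 to 0.958 within a group, 0.916 to 0.942 between BR and PT of 1 line and 0.891 to 0.912 between lines. Of the B cell and mantle cell markers, MS4A1, CD79A, CD79B, PAX5 and CCND1 ranked high on every array, with a lowest percentile of 94.96 (PAX5). SOX11 ranged from percentile 80.5 to 95.65, CD22 from 71.3 to 86.9 and CD5 from 20.3 to 71.2. Over the 8 such markers read, the summed score was 14.7 to 15.7 in HBL2 BR and 16.0 to 16.9 in HBL2 PT, against 17.3 to 17.8 in JEKO BR and 17.7 to 18.0 in JEKO PT. Of the 8, CD79A and CD79B passed the limma test in HBL2, where 11.8% of all genes did. Both were lower in BR, by changes of -0.35 and -0.25 (adjusted p = 9.81e-04 and 0.0173). In JEKO, where 4.28% of all genes passed, CD22 alone did, with a BR minus PT change of 0.35 (adjusted p = 0.0421). The sums of T cell, myeloid, stromal and erythroid markers overlapped between BR and PT in HBL2, and so did all but the erythroid sum in JEKO (1.41 to 1.44 in JEKO BR and 1.45 to 1.49 in JEKO PT). The part of the lower B cell sum of HBL2 BR in the results was not tested.

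BMPs bind pairs of type I and type II receptor kinases at the cell surface, and the type I receptor phosphorylates SMAD1, SMAD5 and SMAD9. These join SMAD4, enter the nucleus and bind DNA, and the ID genes are among their best known targets. SMAD6 and SMAD7 act against the pathway. ID proteins have a helix-loop-helix domain but no DNA-binding part, and they hold E proteins such as TCF3, TCF4 and TCF12, which B cells need, away from DNA. In human B cells BMPs are known to induce ID genes and to restrain growth.

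The promoters of SMAD1 and of the 3 ID genes are shown because SMAD1 was selected on its changes and the ID genes are the targets read beside it. All 10 genes were found in the RefSeq promoter table (GRCh38.p14), which gives 250 bases before to 50 bases after a start. SMAD1 has 5 windows in it, and the one printed holds the most motif matches: chr4:145482084-145482383, plus strand. The others are ID1 at chr20:31605039-31605338 (plus strand), ID2 at chr2:8681806-8682105 (plus strand) and ID3 at chr1:23559452-23559751 (minus strand). Capitals mark GGCGCC, a GC-rich element bound by BMP SMADs, and GTCT or its reverse complement AGAC, the short SMAD-binding element.
SMAD1: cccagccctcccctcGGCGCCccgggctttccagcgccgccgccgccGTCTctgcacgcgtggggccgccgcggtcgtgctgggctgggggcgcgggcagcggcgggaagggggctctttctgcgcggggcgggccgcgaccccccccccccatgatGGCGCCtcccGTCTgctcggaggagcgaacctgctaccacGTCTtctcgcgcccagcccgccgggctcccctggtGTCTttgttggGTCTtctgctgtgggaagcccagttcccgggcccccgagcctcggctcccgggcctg
ID1: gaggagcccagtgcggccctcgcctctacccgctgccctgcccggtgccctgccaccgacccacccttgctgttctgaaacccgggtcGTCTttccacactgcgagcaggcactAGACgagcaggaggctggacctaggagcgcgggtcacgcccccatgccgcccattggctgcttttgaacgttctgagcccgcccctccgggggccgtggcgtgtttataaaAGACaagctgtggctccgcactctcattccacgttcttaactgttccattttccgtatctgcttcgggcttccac
ID2: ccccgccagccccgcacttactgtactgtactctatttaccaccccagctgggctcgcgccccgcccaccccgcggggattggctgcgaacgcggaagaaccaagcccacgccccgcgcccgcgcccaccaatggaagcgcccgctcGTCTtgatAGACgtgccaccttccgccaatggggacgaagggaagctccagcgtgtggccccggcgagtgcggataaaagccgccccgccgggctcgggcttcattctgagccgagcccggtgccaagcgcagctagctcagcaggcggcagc
ID3: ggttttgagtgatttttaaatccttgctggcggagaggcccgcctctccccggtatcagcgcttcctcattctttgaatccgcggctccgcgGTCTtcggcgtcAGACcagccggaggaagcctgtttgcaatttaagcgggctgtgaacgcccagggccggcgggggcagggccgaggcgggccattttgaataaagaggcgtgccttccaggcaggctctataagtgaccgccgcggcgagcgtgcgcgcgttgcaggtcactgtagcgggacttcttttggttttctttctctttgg
The printed SMAD1 window held 2 GGCGCC and 5 GTCT matches, and its G and C share was 76.7%. The other SMAD1 windows held 0 GGCGCC and 2 GTCT (start 145481056), 0 and 0 (145481400 and 145481603), and 2 and 3 (145482555). The printed window was picked for its matches, while each ID gene had 1 window, so the counts are not compared between genes. The ID1, ID2 and ID3 windows held 0 GGCGCC and 3, 2 and 2 GTCT matches, at G and C shares of 62.7%, 69.0% and 59.7%. Of 35116 windows of this length, 19.2% held GGCGCC and 84.0% held GTCT on either strand, so a GTCT match is usual. The E-protein motif CAGGTG, searched on both strands and held by 20.6% of windows, had 0 matches in the windows of SMAD1 and the ID genes. These matches are letters in a window and say nothing of binding in these cells.

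SMAD1, a SMAD phosphorylated by BMP receptors, was higher in HBL2 BR than in HBL2 PT and lower in JEKO BR than in JEKO PT. Its main probe set, 227798_at, read 1.72, 1.57 and 1.58 on the HBL2 BR arrays, against 0.664, 0.607 and 0.595 on the HBL2 PT arrays. It read 0.798 and 0.816 on the JEKO BR arrays, against 1.999 and 1.973 on the JEKO PT arrays. No array of a BR group overlapped with an array of the matched PT group, and the directions were opposite in the 2 lines. The means were 1.63 ± 0.080 in HBL2 BR and 0.622 ± 0.037 in HBL2 PT (SD, n = 3 each), a change of 1.004 with a standard error (SE) of 0.061. They were 0.807 ± 0.013 in JEKO BR and 1.99 ± 0.018 in JEKO PT (SD, n = 2 each), a change of -1.18 with an SE of 0.075. The HBL2 change exceeded the JEKO change by 2.18 units (SE 0.096), a value made up of the changes that SMAD1 was picked for. By size, its change ranked 42 of 14529 genes in HBL2 and 3 in JEKO.

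In array rank, SMAD1 stood at percentile 88.0 in HBL2 BR and 39.1 in HBL2 PT, and at percentile 56.4 in JEKO BR and 94.4 in JEKO PT. From high to low, the order of the groups was JEKO PT, HBL2 BR, JEKO BR and HBL2 PT, and no neighbouring groups in that order shared a value. The HBL2 PT arrays all lay under the array median, while the JEKO BR arrays lay just above it.

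The other SMAD1 probe sets moved the same ways. 210993_s_at read 1.48, 1.55 and 1.54 in HBL2 BR, against 0.361, 0.650 and 0.692 in HBL2 PT. It read 0.912 and 0.957 in JEKO BR, against 1.71 and 1.56 in JEKO PT. Its changes were 0.96 in HBL2 and -0.70 in JEKO. The third, 208015_at, had smaller changes of 0.30 in HBL2 and -0.56 in JEKO, with 1 JEKO BR array at 0.0514 and the other at 0.626. BR and PT arrays did not overlap in either line on any of the 3 probe sets. Since all 3 probe sets are read from the same RNA, they are repeat readings of each sample and no replicates. With every alternative on the deposited scale, the SMAD1 change stayed between 0.96 and 1.03 in HBL2 and between -1.19 and -0.83 in JEKO. SMAD1 was picked for this change, so that range describes the same arrays and adds no support.

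**Figure D1:**
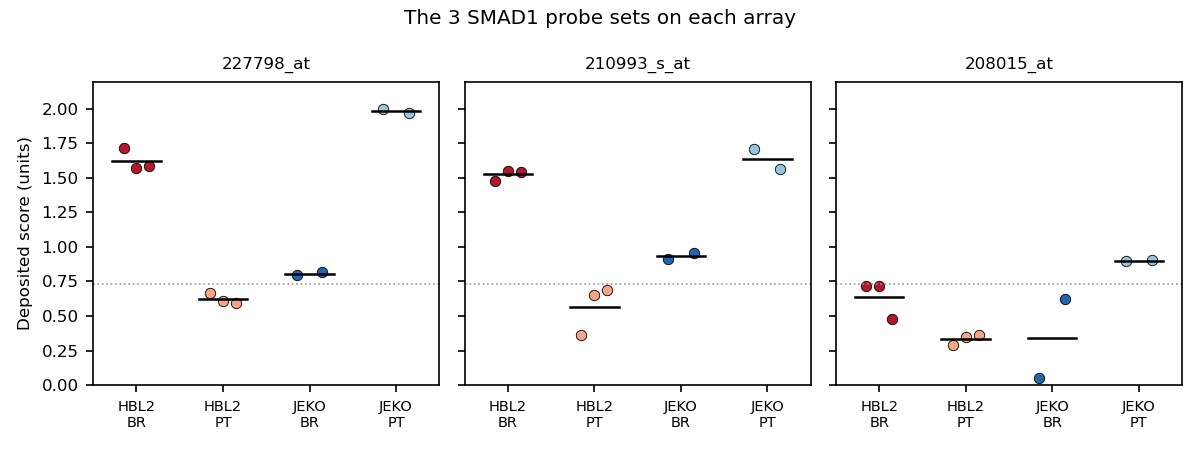
Deposited score (units) of the 3 SMAD1 probe sets on each of the 10 arrays, by group; a point is 1 array, a bar is the group mean and the dotted line is the array median of 0.73. On every probe set the HBL2 BR arrays lie above the HBL2 PT arrays, and the JEKO BR arrays lie below the JEKO PT arrays.

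The measured genes nearest SMAD1 on its chromosome were read, 3 on each side. ANAPC10, ABCE1 and OTUD4 lie on one side and MMAA, ZNF827 and LSM6 on the other. Of these 6, 0 passed the limma test in either line, where 11.8% of all genes passed in HBL2 and 4.28% in JEKO, so a count of 0 is near the background. The lowest adjusted p was 0.225 in HBL2 and 0.342 in JEKO. Their changes ran from -0.15 to 0.15 in HBL2 and from -0.13 to 0.22 in JEKO, and 0 had an unadjusted p under 0.05 in HBL2 or JEKO. OTUD4 alone passed in 1 alternative, with a change of 0.24 in HBL2 in the fit without _x_at or _s_at probe sets (adjusted p = 0.0430).

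Across the 10 arrays, the genes whose values ran most like SMAD1 were VRK1 (r = 0.948), SGCB (r = 0.938), BOD1L1 (r = 0.928), MCM10 (r = 0.918) and RANBP3 (r = 0.914), given as a description over arrays that share 4 groups. Their range was narrower than that of SMAD1: VRK1 averaged 2.35 in HBL2 BR and 2.09 in HBL2 PT, and 2.15 in JEKO BR and 2.35 in JEKO PT. MCM10, a DNA replication factor, averaged 1.85 in HBL2 BR and 1.52 in HBL2 PT, and 1.47 in JEKO BR and 1.88 in JEKO PT. The 8 other genes read had r values with SMAD1 between -0.44 (ID3) and 0.35 (SMAD7), so none ran close to it.

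Of the 8 other genes, 2 passed the test between HBL2 BR and HBL2 PT, where 11.8% of all genes did (4.91% higher and 6.86% lower), and both were ID genes: ID2 rose and ID3 fell. Between JEKO BR and JEKO PT 0 of 8 passed in limma, where 4.28% of all genes did, and 0 had an unadjusted p under 0.05. The median change of the 8 was 0.05 in HBL2 (-0.001 over all genes) and -0.019 in JEKO (0.012 over all genes). The difference between the HBL2 and the JEKO change passed in limma for 0 of 8, where 8.71% of all genes passed, and 3 had an unadjusted p under 0.05, namely ID1, ID2 and ID3. The share of all genes with an unadjusted p under 0.05 is not given here, so that count has no background. Nor is the share of all genes without overlap between BR and PT arrays, so a lack of overlap is description only.

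**Figure D2:**
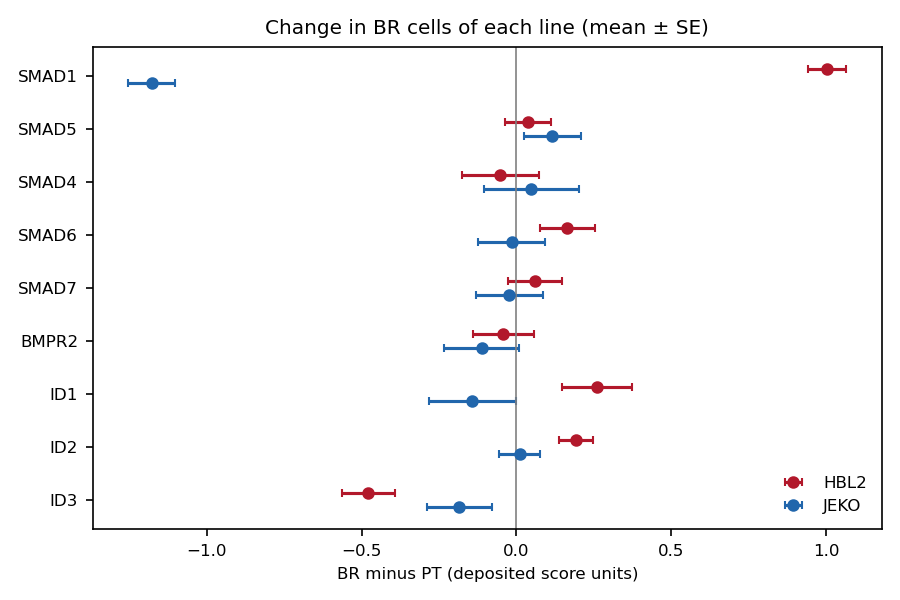
Change in deposited score (units), BR minus PT, of the 9 genes read in HBL2 and in JEKO; bars are standard errors of the limma fit over all 10 arrays. SMAD1 stands at 1.004 in HBL2 and -1.18 in JEKO and has no test, while the other 8 genes lie between -0.48 and 0.26.

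BMPR2, the type II receptor that pairs with BMP type I receptors, differed between the lines and not detectably between BR and PT cells. It read 1.51, 1.49 and 1.35 on the HBL2 BR arrays, against 1.23, 1.51 and 1.73 on the HBL2 PT arrays. It read 0.713 and 0.780 on the JEKO BR arrays, against 0.764 and 0.953 on the JEKO PT arrays. BR and PT arrays overlapped in both lines, and every HBL2 array lay above every JEKO array. The BR minus PT change was -0.042 in HBL2 (95% interval -0.25 to 0.17, adjusted p = 0.861) and -0.11 in JEKO (-0.37 to 0.15, adjusted p = 0.711).

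SMAD5, the SMAD closest to SMAD1 in use by BMP receptors, had no such swing. Its main probe set read 1.94, 1.94 and 1.82 in HBL2 BR, against 1.69, 1.89 and 2.02 in HBL2 PT, with overlap. It read 2.04 and 1.95 in JEKO BR, against 1.84 and 1.91 in JEKO PT, with no overlap. The change was 0.038 in HBL2 (95% interval -0.12 to 0.20, adjusted p = 0.829) and 0.12 in JEKO (-0.078 to 0.31, adjusted p = 0.574). Over its 5 probe sets, the HBL2 changes ran from -0.12 (205188_s_at) to 0.18 (235451_at), and the JEKO changes from -0.074 (235451_at) to 0.12 (225219_at).

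SMAD4, the common partner that takes the receptor SMADs into the nucleus, was lower in HBL2 than in JEKO. It read 1.35, 1.504 and 0.939 in HBL2 BR, against 1.07, 1.32 and 1.55 in HBL2 PT, a wide and overlapping spread. It read 2.0 and 1.87 in JEKO BR, against 1.81 and 1.97 in JEKO PT, also overlapping. The change was -0.052 in HBL2 (95% interval -0.32 to 0.21, adjusted p = 0.863) and 0.048 in JEKO (-0.28 to 0.37, adjusted p = 0.924). A second probe set, 235725_at, read 1.82 and 2.02 in JEKO BR, against 1.52 and 1.68 in JEKO PT, a change of 0.32. Its adjusted p was 0.0859 among all probe sets, and 0.0366 in the fit that left out probe sets with the suffix _x_at or _s_at. It thus differs here from the main SMAD4 probe set. The JEKO changes of the remaining SMAD4 probe sets were -0.099 (1565703_at), 0.064 (202526_at) and 0.13 (1565702_at), and none passed among all probe sets.

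SMAD6 and SMAD7, which block the receptor and the receptor SMADs, gave no call. SMAD6 read 1.08, 1.17 and 1.15 in HBL2 BR, against 1.13, 1.04 and 0.738 in HBL2 PT, and 0.999 and 0.879 in JEKO BR, against 0.989 and 0.920 in JEKO PT. SMAD7 read 0.793, 0.870 and 0.828 in HBL2 BR, against 0.944, 0.763 and 0.606 in HBL2 PT, and 0.878 and 0.991 in JEKO BR, against 0.923 and 0.991 in JEKO PT. For both genes the BR and PT arrays overlapped in each line. The SMAD6 change was 0.16 in HBL2 (95% interval -0.023 to 0.35, adjusted p = 0.286) and -0.015 in JEKO (-0.24 to 0.21, adjusted p = 0.968). That of SMAD7 was 0.059 in HBL2 (-0.13 to 0.24, adjusted p = 0.754) and -0.022 in JEKO (-0.25 to 0.21, adjusted p = 0.950).

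The dim SMAD6 probe set 209887_at, which was below the filter on low scores, ran in opposite directions in the 2 lines. It read 0.675, 0.650 and 0.651 in HBL2 BR, against 0.524, 0.527 and 0.386 in HBL2 PT, and 0.260 and 0.0834 in JEKO BR, against 0.486 and 0.763 in JEKO PT. BR and PT arrays did not overlap in either line, but 9 of the 10 values lay under the array median. Fitted among all 41091 probe sets, a fit added after seeing the data, the HBL2 minus JEKO difference of change was 0.63 (adjusted p = 0.0490). Between HBL2 BR and JEKO BR it differed by 0.49 (adjusted p = 0.00970). As 209887_at is described here for its opposite directions, these p-values are description only. In the same limma fit the difference of change was 0.18 for the main SMAD6 probe set (adjusted p = 0.667). It was -0.15 for 209886_s_at and -0.11 for 213565_s_at, and neither passed. The other 3 SMAD6 probe sets had changes of -0.19 to 0.16 in HBL2 and -0.034 to 0.044 in JEKO. Of these, 209886_s_at, which passed the filter, ran against 209887_at in HBL2: it read 0.631, 0.620 and 0.365 in HBL2 BR, against 0.742, 0.734 and 0.706 in HBL2 PT, with no overlap and a change of -0.19 (adjusted p = 0.429 among all probe sets).

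**Figure D3:**
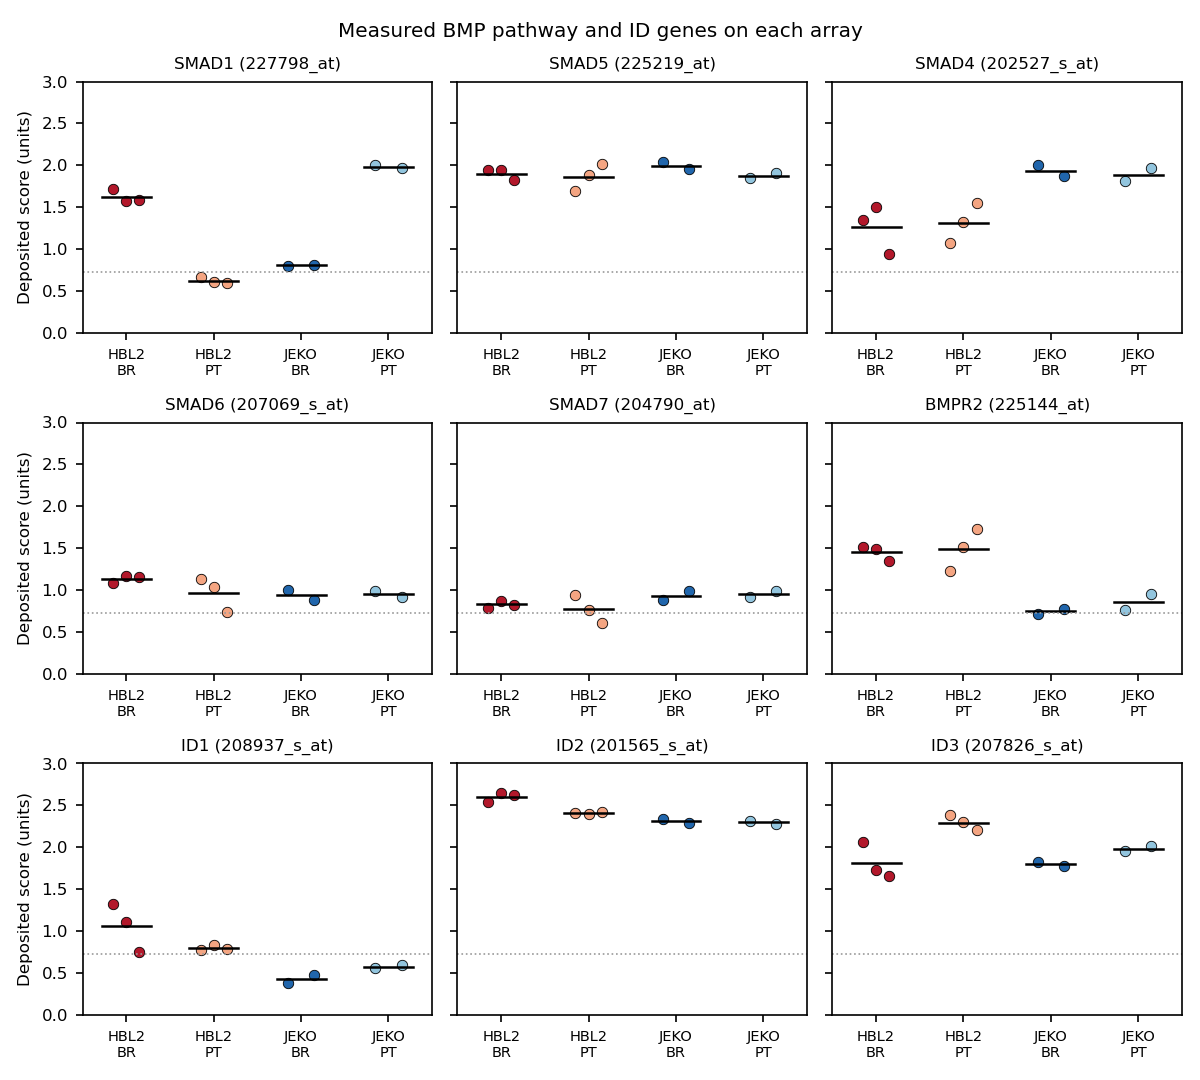
Deposited score (units) of the main probe set of each of the 9 genes on the 10 arrays, by group; a point is 1 array, a bar is the group mean and the dotted line is the array median of 0.73. BR and PT arrays of HBL2 do not overlap for SMAD1, ID2 and ID3, and those of JEKO, with 2 arrays a group, do not for SMAD1, SMAD5, ID1 and ID3. BMPR2, SMAD4, ID1 and ID2 separate the lines. The share of all genes without overlap is not given, so this is description only.

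ID3, a target of BMP SMADs and an antagonist of E proteins in B cells, fell in HBL2 BR. It read 2.06, 1.73 and 1.66 in HBL2 BR, against 2.38, 2.30 and 2.20 in HBL2 PT. It read 1.82 and 1.78 in JEKO BR, against 1.96 and 2.01 in JEKO PT. BR arrays lay below PT arrays in both lines. The means were 1.82 ± 0.21 in HBL2 BR and 2.30 ± 0.090 in HBL2 PT (SD, n = 3 each), a change of -0.48 (SE 0.086, adjusted p = 0.00122), which ranked 381 of 14529 by size. In JEKO the change was -0.18 (SE 0.10, 95% interval -0.41 to 0.037) and did not pass (adjusted p = 0.396). The difference between the lines, -0.29, did not pass either (adjusted p = 0.214), although without HBL2 BR replicate 1 it was -0.42 (adjusted p = 0.0298). The genes that ran most like ID3 over the 10 arrays, again as a description, were STK16 (r = 0.980), TMEM132D (r = 0.951), GNB4 (r = 0.948), TMEM38A (r = 0.945) and KLF3 (r = 0.920).

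ID2, an ID protein made in many blood cell types, rose in HBL2 BR by less. It read 2.54, 2.65 and 2.62 in HBL2 BR, against 2.41, 2.40 and 2.42 in HBL2 PT. It read 2.34 and 2.29 in JEKO BR, against 2.32 and 2.28 in JEKO PT. The HBL2 groups did not overlap and the JEKO groups did. The change was 0.19 in HBL2 (SE 0.054, adjusted p = 0.0281) and 0.011 in JEKO (95% interval -0.13 to 0.15, adjusted p = 0.961), and their difference of 0.18 did not pass (adjusted p = 0.226). Leaving out HBL2 BR replicate 2, HBL2 BR replicate 3 or HBL2 PT replicate 2 ended the HBL2 call, at adjusted p-values of 0.153, 0.0740 and 0.0777. The second probe set, 201566_x_at, changed by 0.41 in HBL2 and 0.045 in JEKO, and its HBL2 BR arrays also lay above the HBL2 PT arrays. Its HBL2 change did not pass in the limma fit of all probe sets (adjusted p = 0.0708). On this probe set the HBL2 PT arrays spread widely, at 1.938, 2.025 and 1.416.

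ID1, among the genes induced soonest by BMPs in many cell types, spread widely in HBL2 BR. It read 1.32, 1.11 and 0.754 in HBL2 BR, against 0.781, 0.837 and 0.784 in HBL2 PT. It read 0.388 and 0.481 in JEKO BR, against 0.563 and 0.591 in JEKO PT. HBL2 BR replicate 3 lay below all HBL2 PT arrays and the other 2 HBL2 BR arrays above them, while in JEKO both BR arrays lay below the PT arrays. The change was 0.26 in HBL2 (SE 0.11, adjusted p = 0.174) and -0.14 in JEKO (95% interval -0.44 to 0.15, adjusted p = 0.674), and neither passed. Without HBL2 BR replicate 3 the HBL2 change was 0.41 (adjusted p = 0.0121), and its difference from the JEKO change was 0.56 (adjusted p = 0.0258). With array weights the HBL2 change was 0.30 (adjusted p = 0.0363). The genes whose values ran most like ID1 over the 10 arrays were DOCK10 (r = 0.969), SLC7A11 (r = 0.962), CCDC126 (r = 0.955), PRMT3 (r = 0.945) and DCTN6 (r = 0.944), given as a description. The beta-actin 5' minus 3' value of HBL2 BR replicate 3, a sign of RNA quality, was -1.04, the lowest of its group (others -0.694 and -0.827). Over all arrays this value ran from -1.25 to -0.575, and its part in the low ID1 value was not tested.

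Between the lines, as for genes at large, more of the 8 genes differed than between BR and PT cells of either line. In PT cells 3 of 8 passed, where 23.1% of all genes did (13.9% higher and 9.25% lower in HBL2): SMAD4 was lower in HBL2 than in JEKO, and BMPR2 and ID3 were higher. In BR cells 4 of 8 passed, where 28.1% of all genes did (14.0% higher and 14.1% lower in HBL2): SMAD4 was lower in HBL2, and BMPR2, ID1 and ID2 were higher. ID1 reached the filter on low scores only through HBL2, which limits the BR count and its reading against 28.1%. The median difference of the 8 was 0.063 in PT cells (0.014 over all genes) and 0.11 in BR cells (0.006 over all genes).

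BMPR2 was higher in HBL2 than in JEKO by 0.70 in BR cells (adjusted p = 1.74e-04) and by 0.63 in PT cells (adjusted p = 6.05e-04). Of its other 5 probe sets, 4 also had higher means in both HBL2 groups than in both JEKO groups, and 1556075_at, below the filter, had lower ones. In the limma fit of all probe sets, 231873_at passed in BR and in PT cells (adjusted p = 0.0019 and 0.0085). 210214_s_at passed in PT cells alone (adjusted p = 0.036, and 0.0795 in BR cells). Neither 209920_at (0.155 in BR and 0.0849 in PT cells) nor 238516_at (0.79 and 0.303) passed. SMAD4 was lower in HBL2 by 0.67 in BR cells (adjusted p = 0.00181) and by 0.57 in PT cells (adjusted p = 0.00702). The PT call was lost without JEKO PT replicate 2 (a difference of -0.49, adjusted p = 0.0894) and with percentile ranks (adjusted p = 0.119), and the BR call with percentile ranks (adjusted p = 0.0562). The probe set 235725_at of SMAD4 was also lower in HBL2, by 0.74 in BR cells and 0.50 in PT cells (differences of -0.74 and -0.50, adjusted p = 1.04e-05 and 5.57e-04 among all probe sets). In the same limma fit 1565703_at differed by -0.31 in BR cells (adjusted p = 0.0729) and -0.43 in PT cells (adjusted p = 0.016). 202526_at differed by -0.27 and -0.26 (adjusted p = 0.0851 and 0.114). 1565702_at, below the filter, differed by -0.11 and 0.055 (adjusted p = 0.62 and 0.85).

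ID1 was higher in HBL2 BR than in JEKO BR by 0.63 (adjusted p = 0.00151), and in PT cells the difference was 0.22 (adjusted p = 0.239). Every JEKO array read ID1 under the array median of 0.73, so ID1 passed the filter on low scores only through HBL2. Such a filter favours genes that are high in 1 line, which limits this test of ID1. ID2 was higher in HBL2 BR than in JEKO BR by 0.29 (adjusted p = 0.00171), and in PT cells the difference was 0.11 (adjusted p = 0.218). ID3 was higher in HBL2 PT than in JEKO PT by 0.31 (adjusted p = 0.0265), and in BR cells the difference was 0.018 (adjusted p = 0.920). The PT call of ID3 was lost without HBL2 PT replicate 1 or 2 or without JEKO PT replicate 1 or 2, at adjusted p-values of 0.0605 to 0.236 over the 6 alternatives that lost it. Whether these line differences themselves differ between BR and PT cells is the same contrast as the difference between the HBL2 and JEKO changes, which passed for 0 of 8 genes in limma. SMAD1 was 0.82 units higher in HBL2 BR than in JEKO BR and differed by -1.36 between HBL2 PT and JEKO PT.

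From high to low by group mean, BMPR2 was ordered HBL2 PT over HBL2 BR, then JEKO PT over JEKO BR, and neighbours overlapped within each line. SMAD4 ran JEKO BR, JEKO PT, HBL2 PT and HBL2 BR, again with overlap within each line. ID1 ran HBL2 BR, HBL2 PT, JEKO PT and JEKO BR, with overlap between the HBL2 groups. ID2 ran HBL2 BR, HBL2 PT, JEKO BR and JEKO PT, with overlap between the JEKO groups. ID3 ran HBL2 PT, JEKO PT, HBL2 BR and JEKO BR, and HBL2 BR overlapped with both of its neighbours. SMAD5 ran JEKO BR, HBL2 BR, JEKO PT and HBL2 PT, and all neighbours overlapped but JEKO BR and HBL2 BR. SMAD7 ran JEKO PT, JEKO BR, HBL2 BR and HBL2 PT, and all neighbours overlapped but JEKO BR and HBL2 BR. SMAD6 ran HBL2 BR, HBL2 PT, JEKO PT and JEKO BR, with overlap between all neighbours. The main probe sets of SMAD5, SMAD6 and SMAD7 did not pass between the lines, apart from SMAD7 between HBL2 PT and JEKO PT with the beta-actin covariate (a difference of -0.24, adjusted p = 0.0467).

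The wider pathway was read from 8 lists with 92 genes, of which 71 were measured and 62 were not among the genes above. Of these 62, 16 passed in HBL2 (25.8%, against 11.8% of all genes), with 7 higher and 9 lower in BR, where 4.91% of all genes were called higher and 6.86% lower. The lists were chosen with earlier results of these data known. A share above that of all genes is thus description only and no result about the pathway. In JEKO 1 of 62 passed (1.61%, against 4.28% of all genes) and 12 had an unadjusted p under 0.05. The share of all genes with an unadjusted p under 0.05 is not given here. Such counts, here and by list below, thus have no background and are no result about these genes. Over all genes, 2.56% were called higher and 1.72% lower in JEKO BR. This JEKO count ran from 0 (JEKO BR replicate 1 or JEKO PT replicate 1 left out) to 4 without HBL2 PT replicate 3, and was 5 with array weights. The difference between the HBL2 and JEKO changes passed for 11 of 62 (17.7%, against 8.71% of all genes), with 6 higher and 5 lower, where 2.95% of all genes were called higher and 5.76% lower. The count was 6 without JEKO PT replicate 1 and 7 without either JEKO BR array. The median change of the 62 was -0.020 in HBL2, -0.0051 in JEKO and -0.067 for the difference.

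**Figure D4:**
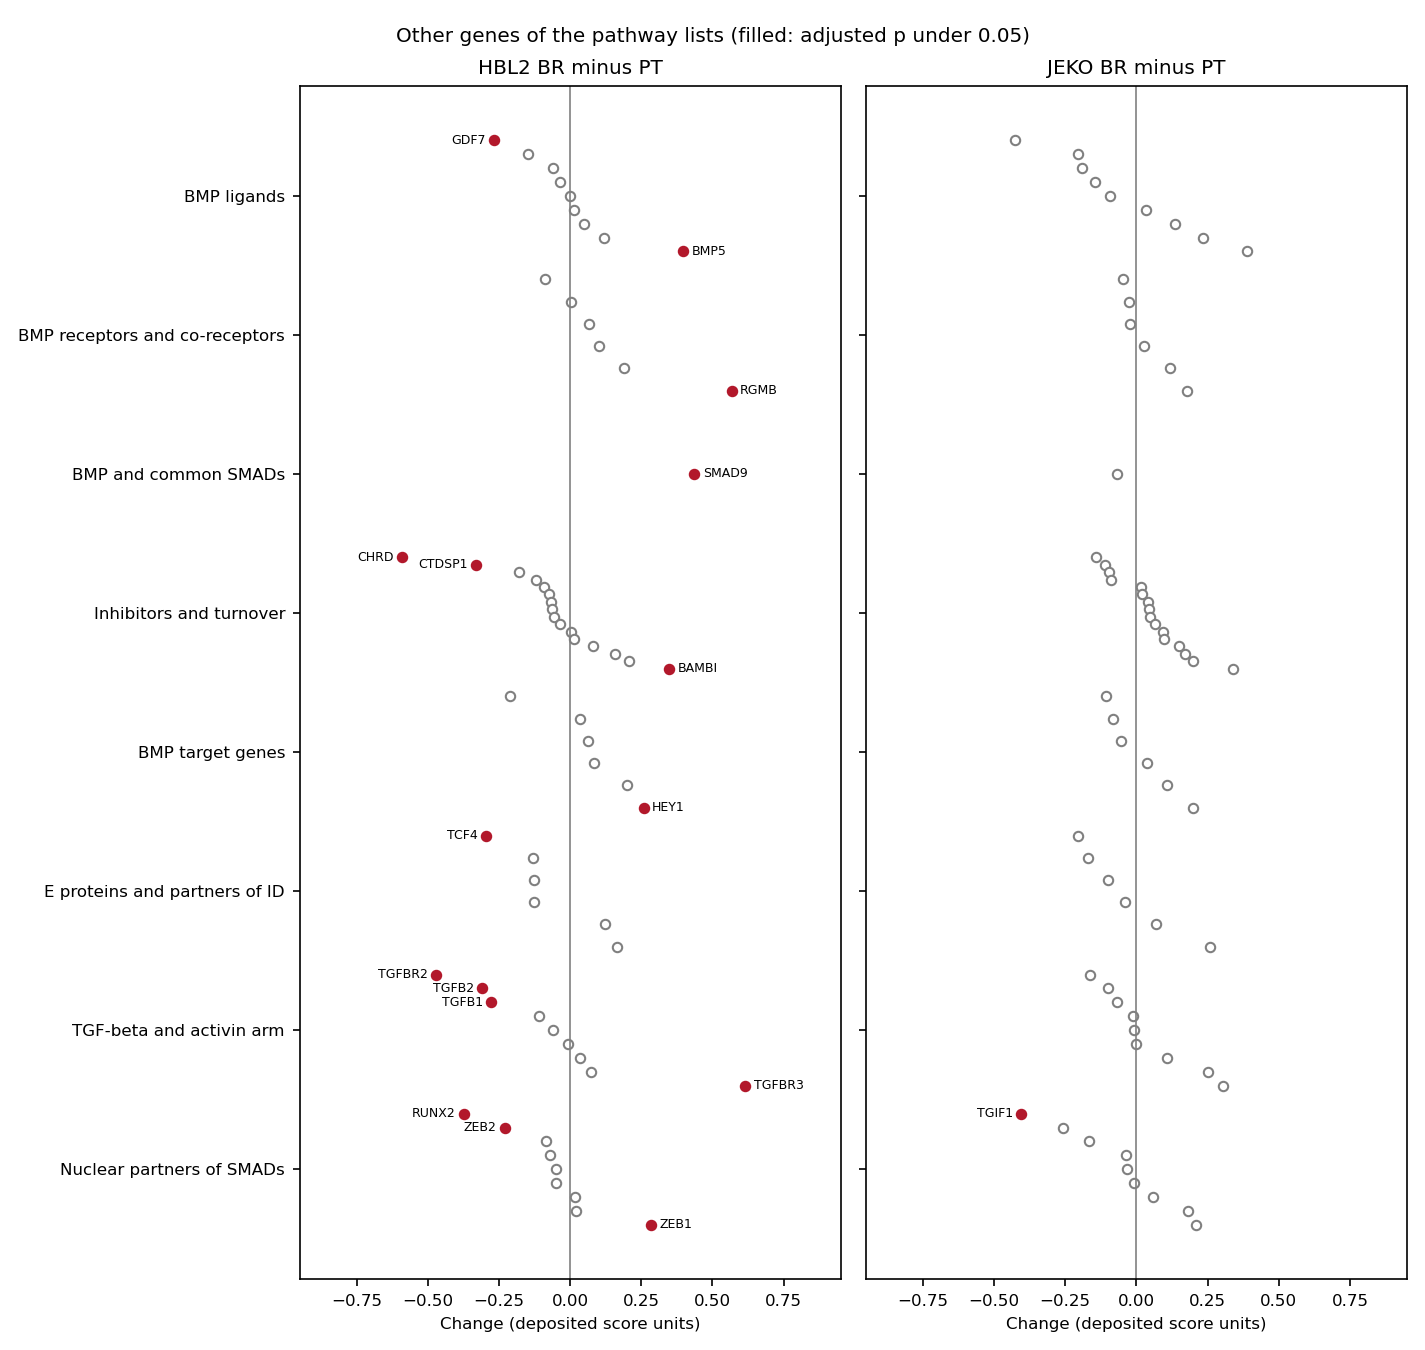
Change in deposited score (units), BR minus PT, of the 62 measured pathway genes by list, in HBL2 and in JEKO; a point is 1 gene, points are sorted by size within a list and panel, and filled points have an adjusted p under 0.05. In HBL2 16 genes are filled, from CHRD at -0.59 to TGFBR3 at 0.615, and in JEKO TGIF1 alone is filled.

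Among ligands, 9 of 14 were measured and 2 passed in HBL2. BMP5 rose: it read 1.11, 1.08 and 1.15 in HBL2 BR, against 0.647, 0.702 and 0.805 in HBL2 PT, a change of 0.40 (adjusted p = 0.00445). GDF7 fell by 0.27 (adjusted p = 0.0446), a call that 15 of 22 alternatives lost, which include each fit that left out an array, apart from HBL2 PT replicate 1 (highest adjusted p 0.188). In JEKO 0 of 9 ligands passed in limma and 3 had an unadjusted p under 0.05. Among receptors and co-receptors, 7 of 11 were measured and 1 passed in HBL2. RGMB, a BMP co-receptor of the repulsive guidance family, read 1.27, 1.30 and 1.25 in HBL2 BR, against 0.758, 0.589 and 0.779 in HBL2 PT, a change of 0.57 (adjusted p = 4.90e-05). Its JEKO arrays overlapped, at 1.14 and 1.13 in JEKO BR against 1.25 and 1.07 in JEKO PT.

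SMAD9, the third SMAD phosphorylated by BMP receptors, rose in HBL2 as SMAD1 was higher there, but not in JEKO. It read 2.01, 2.08 and 2.04 in HBL2 BR, against 1.60, 1.56 and 1.67 in HBL2 PT. It read 1.57 and 1.49 in JEKO BR, against 1.59 and 1.60 in JEKO PT. The change was 0.44 in HBL2 (SE 0.057, adjusted p = 6.95e-05) and -0.068 in JEKO (SE 0.070, adjusted p = 0.692), and the difference of 0.50 passed (adjusted p = 0.00226). The HBL2 call held in all 23 alternatives run and the call of the difference in all 22.

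Of 18 measured genes on the list of inhibitors and turnover, 1 rose and 2 fell in HBL2, and 0 passed in JEKO in limma, where 1 had an unadjusted p under 0.05. BAMBI, a decoy receptor without a kinase, read 1.13, 1.04 and 1.10 in HBL2 BR, against 0.885, 0.725 and 0.619 in HBL2 PT, a change of 0.35 (adjusted p = 0.00635). In JEKO it read 0.827 and 0.853 in BR, against 0.995 and 0.973 in PT, a change of -0.14 that did not pass (adjusted p = 0.480). CHRD, a secreted protein that traps BMPs, read 0.238, 0.217 and 0.444 in HBL2 BR, against 0.999, 0.805 and 0.870 in HBL2 PT, a change of -0.59 (adjusted p = 0.00120). With the median over its probe sets this call was lost (adjusted p = 0.0818). CTDSP1, a phosphatase that acts on SMADs, fell by 0.33 (adjusted p = 0.00541).

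Of 9 measured BMP target genes, ID2 and HEY1 rose and ID3 fell in HBL2, 6 did not pass, and in JEKO 0 passed in limma and 0 had an unadjusted p under 0.05. HEY1, a repressor also known as a Notch target, rose by 0.26 (adjusted p = 0.0261), a call that ended when any HBL2 array but HBL2 PT replicate 2 was left out (adjusted p = 0.0529 to 0.102). All 6 genes on the list of E proteins and partners of ID were measured. TCF4, the E protein E2-2, fell in HBL2: it read 2.83, 2.84 and 2.84 in HBL2 BR, against 3.10, 3.02 and 3.28 in HBL2 PT, a change of -0.30 (adjusted p = 0.00583), which was lost with the median over probe sets or with percentile ranks (adjusted p = 0.167 and 0.254). Of TCF3, which encodes E2A, and TCF12, which encodes HEB, neither passed within a line, but the lines differed in their change. TCF3 read 2.23, 2.36 and 2.43 in HBL2 BR, against 2.45, 2.47 and 2.47 in HBL2 PT, and 2.65 and 2.84 in JEKO BR, against 2.42 and 2.55 in JEKO PT. The difference of change was -0.39 for TCF3 (adjusted p = 0.0317) and 0.37 for TCF12 (adjusted p = 0.0125), and TCF3 turned to 0.15 in the fit without _x_at or _s_at probe sets.

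The TGF-beta and activin arm, which signals through other receptor SMADs, had 9 of 12 genes measured, with 1 higher and 3 lower in HBL2 BR and 0 called in JEKO in limma, where 2 had an unadjusted p under 0.05. TGFBR3, the co-receptor betaglycan, read 1.52, 1.56 and 1.45 in HBL2 BR, against 0.819, 0.867 and 1.001 in HBL2 PT, a change of 0.615 (adjusted p = 1.94e-05). TGFBR2, the type II receptor for TGF-beta, read 1.27, 1.27 and 1.40 in HBL2 BR, against 1.66, 1.73 and 1.96 in HBL2 PT, a change of -0.47 (adjusted p = 3.82e-04). The ligands TGFB1 and TGFB2 fell by 0.28 and 0.31 (adjusted p = 0.0175 and 0.0171). The TGFB1 call was lost in 5 alternatives, among them without HBL2 PT replicate 1 or HBL2 BR replicate 1 or 2 (adjusted p = 0.0570 to 0.585 over the 5). The TGFB2 call was also lost in 5, among them without HBL2 PT replicate 3 or HBL2 BR replicate 1 or 3 (adjusted p = 0.0521 to 0.0974).

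Of 9 measured nuclear partners of SMADs, 1 rose and 2 fell in HBL2, and 1 fell in JEKO. ZEB1, a zinc finger repressor, read 1.98, 2.01 and 1.94 in HBL2 BR, against 1.72, 1.73 and 1.63 in HBL2 PT, a change of 0.28 (adjusted p = 0.00423). It read 1.41 on both JEKO BR arrays, against 1.73 and 1.60 in JEKO PT, and the difference between the lines of 0.54 passed (adjusted p = 0.00172). ZEB2 and RUNX2 fell by 0.23 and 0.37 in HBL2 (adjusted p = 0.0497 and 0.0312), with 16 and 10 of 23 alternatives losing the call. For ZEB2 these included leaving out any 1 array other than HBL2 PT replicate 3, and for RUNX2 leaving out any 1 HBL2 array other than HBL2 PT replicate 1. TGIF1, a corepressor of SMADs, read 1.05 and 1.24 in JEKO BR, against 1.51 and 1.59 in JEKO PT, a change of -0.40 (adjusted p = 0.0161). That call was lost without JEKO PT replicate 1 or 2 or JEKO BR replicate 1, at adjusted p-values up to 0.282 over 5 alternatives.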

How the data were processed

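The 10 arrays were grouped by line and phenotype, as their titles give them. The measured values are a score deposited for 54675 probe sets, and sorting showed every array to hold identical values (largest difference 0, 75th percentile 1.18). The submitters' processing notes name MAS5 with no version. The sources used here do not give later steps, the log base or the build. No detection calls were used, a shift of most genes cannot be seen in such values, and 0 other columns were left aside.

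The platform annotation gave 41091 probe sets 1 symbol, 1801 several and 11721 none, beside 62 controls. A probe set had to reach the 50th percentile of 2 or more arrays, and each gene was then represented by its probe set of highest mean, for 14529 genes. Of the 28 probe sets read here 24 passed this filter. The fit used limma 3.58.1 (R 4.3.3): group means through lmFit and contrasts.fit, then eBayes with its trend option, at 6 residual degrees of freedom and a mean prior of 9.89. The 5 contrasts set BR against PT within HBL2, BR against PT within JEKO, these changes against each other, and HBL2 against JEKO in PT and in BR cells. Tests were two-sided, with Benjamini-Hochberg adjustment across the 14529 genes, and an adjusted p under 0.05 was called. The fit was tested on simulated data.

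The genes and lists were chosen with earlier results of these data known. SMAD1 was given no test in any contrast, although the plan allowed one in HBL2. Named were all 9 genes read, every called pathway gene, the 5 genes most like SMAD1, ID1 and ID3 by Pearson's r, and the 3 measured neighbours of SMAD1 on each side in the RefSeq gene table (GRCh38.p14), used for order only. Neighbours were added after seeing the data. Alternatives were other filters, variance models, array weights, single-line fits, a replicate block, other probe set rules, ranks, normal scores, a beta-actin covariate and each array left out. A fit of every probe set on its own was also added after seeing the data. Where a JEKO array is left out, its group keeps 1 sample, which is assumed to vary like the other groups.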

Additional observations from a re-analysis of the deposited data

Results flagged for a closer look

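SMAD1 stood out because the lines moved in opposite directions: all HBL2 BR arrays lay above all HBL2 PT arrays, and all JEKO BR arrays lay below all JEKO PT arrays, a difference of change of 2.18 units. That difference was not tested, since SMAD1 was picked for the changes it is made up of.

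For 11 pathway genes the HBL2 change differed from the JEKO change by the limma test of the difference itself. It was higher in HBL2 for RGMB (0.59, adjusted p = 0.00375), SMAD9 (0.50, adjusted p = 0.00226), BAMBI (0.49, adjusted p = 0.0184), TCF12 (0.37, adjusted p = 0.0125), TGFBR3 (0.51, adjusted p = 0.00934) and ZEB1 (0.54, adjusted p = 0.00172). It was lower for CHRD (-0.79, adjusted p = 0.0071), TCF3 (-0.39, adjusted p = 0.0317), TGFB2 (-0.61, adjusted p = 0.00583), TGFBR2 (-0.47, adjusted p = 0.0184) and RUNX2 (-0.58, adjusted p = 0.0422). SMAD9 and ZEB1 kept this call in all 22 alternatives run. RGMB, CHRD and TGFB2 lost it with the median over probe sets (adjusted p = 0.0630, 0.101 and 0.0620). BAMBI lost it without HBL2 BR replicate 1 or any 1 JEKO array, TCF12 without JEKO PT replicate 1 or 2 or JEKO BR replicate 1, TGFBR2 without JEKO PT replicate 1 or either JEKO BR array, and TGFBR3 without JEKO PT replicate 1 or JEKO BR replicate 2. TCF3 lost it without HBL2 PT replicate 2, HBL2 BR replicate 1 or 2, JEKO PT replicate 1 or JEKO BR replicate 2, and RUNX2 without any 1 HBL2 array other than HBL2 PT replicate 1, or without JEKO PT replicate 2 or JEKO BR replicate 1. The highest adjusted p among the alternatives that lost the call was 0.0720 for BAMBI, 0.0616 for TCF12, 0.0865 for TGFBR2, 0.132 for TGFBR3 and 0.549 for RUNX2. For TCF3 it was 0.689, in the fit without _x_at or _s_at probe sets, where the difference turned to 0.15, and otherwise 0.406.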

How the results depend on the processing

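Over the 8 tested genes, 5 contrasts and all alternatives run, 781 of 845 values kept their direction and their side of the threshold, 15 lost a call, 6 gained one and 43 turned in sign. The deposited values carry no detection call and 1 distribution, so low scores and a shift of most genes limit what they show. The 2 members that passed in HBL2 fell to 1 with no intensity trend, with each line alone and with percentile ranks, and to 0 without _x_at or _s_at probe sets, where ID1, ID2 and ID3 have none left. Without those probe sets 1 passed in JEKO (SMAD4) and 2 of the 4 between HBL2 BR and JEKO BR. With percentile ranks 1 of the 3 between HBL2 PT and JEKO PT passed. With each array left out in turn, the counts were 1 to 2 for HBL2, 0 to 1 for the difference of changes and 1 to 3 between HBL2 PT and JEKO PT. SMAD1 kept its direction in every contrast and alternative run, which adds no support, since it was picked for its change on these same arrays.

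Same-numbered BR and PT deviations correlated at 0.017, 0.14 and 0.0075 in HBL2 and 0.078 in JEKO, so the numbers were not used as pairs. With the replicate block 2 genes passed in HBL2, 0 in JEKO and 0 for the difference, and all-gene calls were 1741, 601 and 1257.

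Reversed values were mostly of changes near 0. With array weights the HBL2 change of SMAD4 was 0.055, its difference of change 0.0069, and the HBL2 change of ZNF827 -0.00016. With the median over probe sets the HBL2 change was 0.0084 for SMAD4, -0.012 for SMAD6 and 0.023 for BMPR2, the JEKO change -0.074 for SMAD5, 0.039 for BMPR2 and 0.011 for ANAPC10, the difference of change 0.25 for SMAD5 and -0.017 for BMPR2, and the HBL2 BR minus JEKO BR difference 0.13 for SMAD5 and 0.11 for TOB2. Without _x_at or _s_at probe sets SMAD4 was 0.082 in HBL2, ANAPC10 0.036 in JEKO, TCF3 0.15 for the difference of change and SMURF2 -0.12 between HBL2 BR and JEKO BR. The SMAD6 difference between HBL2 PT and JEKO PT was -1.002 percentile points with percentile ranks and -0.033 deposited units with the beta-actin covariate. With normal scores it was -0.016 on the scale of those scores. The ID3 difference between HBL2 BR and JEKO BR was -0.091 percentile points with percentile ranks. Percentile points and normal scores are not comparable in size with the deposited units. With the beta-actin covariate the difference of change of BMPR2 was -0.018, the HBL2 PT minus JEKO PT difference of SMAD5 0.042, and the JEKO changes of ANAPC10 and ZNF827 0.012 and 0.030. The cause was not tested.

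With each array left out, the HBL2 change ran from -0.17 to 0.078 for BMPR2, from -0.17 to 0.11 for SMAD4, from -0.049 to 0.11 for SMAD5, from -0.023 to 0.15 for SMAD7, from -0.016 to 0.089 for OTUD4, from -0.00018 to 0.085 for MMAA and from -0.055 to 0.074 for ZNF827. The JEKO change ran from -0.013 to 0.035 for ID2, from -0.031 to 0.13 for SMAD4, from -0.075 to 0.045 for SMAD6, from -0.079 to 0.034 for SMAD7, from -0.12 to 0.0040 for OTUD4, from -0.13 to 0.11 for ANAPC10 and from -0.035 to 0.028 for ZNF827. The difference of change ran from -0.060 to 0.19 for BMPR2, from -0.22 to 0.063 for SMAD4 and from -0.0013 to 0.17 for SMAD7. The HBL2 PT minus JEKO PT difference ran from -0.089 to 0.073 for SMAD5 and from -0.066 to 0.13 for SMAD6, and the HBL2 BR minus JEKO BR difference from -0.10 to 0.097 for ID3.

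Calls over all genes moved by over 1.5 times in some settings. With array weights they were 2684 in HBL2, 1032 in JEKO and 1948 for the difference, against 1711, 622 and 1266, and with no intensity trend 389 in JEKO. Leaving out 1 array gave 1118 to 1647 in HBL2, 120 to 942 in JEKO, 658 to 1473 for the difference, 1974 to 3610 between HBL2 PT and JEKO PT (main count 3361) and 2444 to 4609 between HBL2 BR and JEKO BR (main count 4083). Pathway calls for the difference were 5 with the median over probe sets and 7 with percentile ranks, and between HBL2 PT and JEKO PT 12 with percentile ranks. In JEKO they were 2 with the 75th percentile filter, each line alone, the median, percentile ranks or the beta-actin covariate, 5 with array weights and 0 without _x_at or _s_at probe sets. Leaving out 1 array gave 11 to 14 pathway calls in HBL2, 0 to 4 in JEKO and 6 to 12 for the difference.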

Other observations

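Some pathway genes also differed between the lines, in both directions. Of the 62 pathway genes outside the 10 followed here, 20 passed between HBL2 PT and JEKO PT (32.3%, against 23.1% of all genes), with 8 higher and 12 lower in HBL2. Between HBL2 BR and JEKO BR 27 passed (43.5%, against 28.1% of all genes), with 12 higher and 15 lower in HBL2. Since the lists were chosen with earlier results of these data known, these shares are description only. BMP7, a BMP ligand, averaged 0.624 ± 0.20 in HBL2 BR (SD, n = 3) and 1.52 ± 0.16 in JEKO BR (n = 2), a difference of -0.90 (adjusted p = 6.40e-06). It averaged 0.506 ± 0.040 in HBL2 PT (n = 3) and 1.71 ± 0.047 in JEKO PT (n = 2), a difference of -1.21 (adjusted p = 4.05e-07). RUNX2, a nuclear partner of SMADs, ran the other way, with differences of 0.63 in BR cells (adjusted p = 7.64e-04) and 1.21 in PT cells (adjusted p = 2.01e-06), and the BR call was lost with the median over probe sets (adjusted p = 0.0676). RUNX2 read under the array median of 0.73 on every JEKO array, so it passed the filter on low scores only through HBL2. Both HBL2 averages of BMP7 were under that median too. The filter favours genes that are high in 1 line, which limits these tests.

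Genes higher in HBL2 in both BR and PT cells were RUNX2, TOB1, SMURF2, SKIL and TCF4, and genes lower in both were BMP7, SMAD2, LEMD3, EP300, CTDSP2, ZEB2 and TGIF2. In PT cells CTDSP1, ACVR2B and TGFB2 were also higher and RGMB, BMP3, TGIF1, TGFBR1 and MSX1 lower. BMP3 averaged 0.468 in HBL2 PT, 0.483 in HBL2 BR and 0.479 in JEKO BR, all under the array median. In JEKO PT it averaged 0.906. The filter on low scores favours a gene that is high in JEKO PT alone, which limits this test of BMP3. In BR cells BAMBI, BMP5, TCF12, STUB1, SMAD9, TGFBR3 and ZEB1 were also higher and CHRD, TCF3, TGFBR2, SMAD3, TOB2, FKBP1A, TWSG1 and GDF7 lower. The BR differences with the largest size after BMP7 and RUNX2 were LEMD3 at -0.61 (adjusted p = 1.36e-05), ZEB1 at 0.57 (adjusted p = 8.61e-06) and TGFBR3 at 0.55 (adjusted p = 7.66e-05). Over these 47 calls and all alternatives run, 836 of 972 values kept the call, 134 lost it and 2 turned in sign. Calls lost in 10 or more alternatives were those of MSX1 (15 of 21), TGFBR1 (11 of 21) and BMP3 (10 of 20) in PT cells, and of TCF4 (12 of 21), GDF7 (11 of 20) and STUB1 (11 of 20) in BR cells. The BR call of SMURF2 was lost in 7 of 21, and in 1 more its difference turned to -0.12. Without JEKO PT replicate 1 or 2 the PT count was 12 and 10, and without JEKO BR replicate 2 the BR count was 17.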
